A study of Mus musculus with 9 samples.

Results

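Resting mouse embryonic fibroblasts without a working β-actin gene were profiled in the 3 mock libraries of a 9-library series. The 3 libraries were chosen by their labels alone, as the cells that received only the transfection carrier, and no treated library entered any value here. All 3 come from β-actin-/- fibroblasts (MEFs) of the BALB/c strain, made from embryos of 10.5 days and grown in high-glucose DMEM with 10% fetal bovine serum. Mock cells were given Lipofectamine 2000 in Opti-MEM for 6 h, with no nucleic acid, so that "resting" here includes 6 h of exposure to a cationic lipid. The treated groups of the series, not used here, received poly(dA:dT) or poly(I:C) with the same carrier. Wild-type fibroblasts were not analysed here, so no level below can be set against that of a cell with β-actin. The labels do not say whether the 3 libraries came from separate cultures, nor whether the line is 1 clone, and the SD over them (n = 3 throughout) may be technical.

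Actin is the monomer from which cells build microfilaments. Non-muscle cells mostly use the β form (Actb) and the cytoplasmic γ form (Actg1), whereas the 4 muscle forms (Acta1, Acta2, Actc1 and Actg2) are used in skeletal, smooth and heart muscle. Fibroblasts secrete the collagens, fibronectin and proteoglycans of connective tissue, and those that express smooth muscle α-actin (Acta2) are called myofibroblasts. Fibroblasts also carry cytosolic sensors of foreign RNA and DNA, which lead through the kinase Tbk1 and the factors Irf3 and Irf7 to interferon genes, and interferons act through JAK kinases and STAT factors on a large group of interferon-stimulated genes.

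The libraries held 29219797, 25175480 and 19826550 counts assigned to genes, and 18814, 18488 and 18102 genes had at least 1 count. Levels are given as TPM, a measure of transcripts per gene length: the counts divided by the gene's exon length and then scaled to sum to 1000000 per library, so that genes can be compared with each other. A gene is called expressed where it reached 1 TPM in each of the 3 libraries. Of all 46091 genes matched to the annotation, 26.6% were expressed, and of the 21624 protein-coding genes 51.8% were, which is 11209 genes. These are descriptions of 1 group with no contrast, and an exact paired permutation test over 3 libraries could not go below p = 0.25, so none was run. In bulk RNA, fewer cells of a type and less RNA per cell cannot be told apart.

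Actb, the gene named as knocked out, was low beside Acta2 and Actg1 but was counted in every library. It had 924, 772 and 658 counts, or 39.4, 38.2 and 41.9 TPM, a mean of 39.8 ± 1.86 TPM that ranked 4514 among nuclear protein-coding genes. The median of expressed protein-coding genes on the autosomes was 28.3 TPM. The 3 values did not spread apart, and each lay far under the value of its nearest cytoplasmic relative. The files count reads per gene (Actb: GRCm38, chromosome 5, 142903115 to 142906754, minus strand) and do not show which exons these reads came from, and which part of the gene was removed is not given in the labels. The coding stretches of actin genes are also nearly the same in sequence, so that reads shared among them may have been assigned to more than 1 gene or to none. The level of Actb is therefore uncertain.

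The actin RNA of these cells was almost wholly Acta2 and Actg1. Acta2, smooth muscle α-actin (chromosome 19, 34241090 to 34255590), was measured at 4606, 4620 and 4601 TPM, a mean of 4609 ± 10.2. Actg1, cytoplasmic γ-actin (chromosome 11, 120345690 to 120348542), was measured at 4099, 4171 and 4181 TPM, a mean of 4151 ± 44.8. Acta2 made up 51.4 ± 0.251% of the summed TPM of the 6 actin genes, Actg1 46.3 ± 0.271%, Actg2 1.93 ± 0.0355% and Actb 0.444 ± 0.0204%. Both leading genes stood among the 10 highest nuclear protein-coding genes, at ranks 9 and 10.

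Which of the pair stood first depended on the gene length used. By exon length the ratio of Acta2 to Actg1 was 1.11 ± 0.0119 and above 1 in 3 of 3 libraries. By counts alone it was 0.917 ± 0.00986 and above 1 in 0 of 3, and with the longest transcript as length its log2 was -0.18. The order of Acta2 and Actg1 is therefore not resolved. The distance to Actb did not depend on it, since Actg1 exceeded Actb by a ratio of 104 ± 4.64 in TPM and of 103 ± 4.6 in counts.

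The remaining muscle actins were graded. Actg2, the enteric smooth muscle γ-actin, was at 176, 171 and 173 TPM, a mean of 173 ± 2.35, which was 4.35 ± 0.194 times the level of Actb in TPM and 2.53 ± 0.113 times in counts. Acta1, the skeletal muscle form, had 9, 2 and 7 counts and 0.54 ± 0.322 TPM, so that its libraries spread widely and none reached 1 TPM. Actc1, the heart form, had 0 counts in all 3 libraries, which allows up to 0.0837 TPM from 3 counts over the group.

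**Figure D1:**
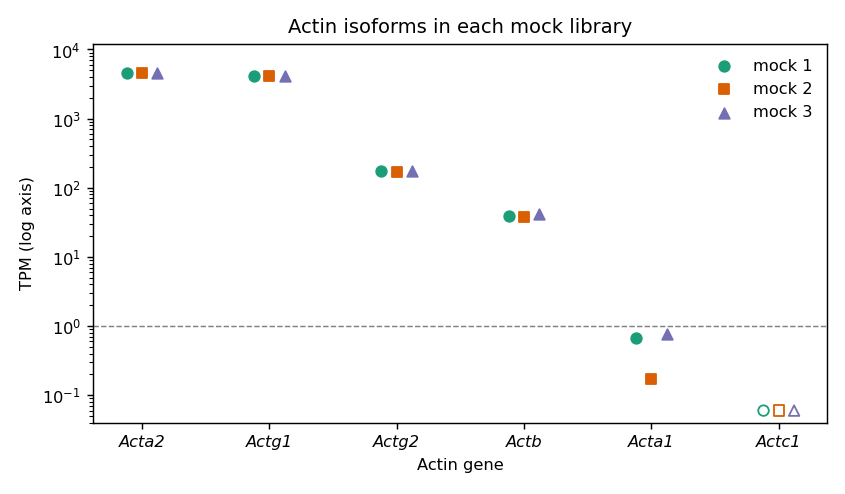
Level of the 6 actin genes in TPM (log axis) in each of the 3 mock libraries, 1 symbol per library; open symbols near the lower edge stand for 0 counts and the dashed line marks 1 TPM. Acta2 and Actg1 lie above 4000 TPM, Actg2 between 171 and 176, Actb between 38.2 and 41.9, and Acta1 under 1.

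The promoters of Actg1 and Acta1 are shown because both hold a CArG box, the site that serum response factor (Srf) binds in many actin and muscle genes, yet the first gene was among the highest and the second near the limit of detection. Each line gives bases before the start site on the gene's own strand, ending 47 bases before the RefSeq start of Actg1 and at that of Acta1, from RefSeq on GRCm38.p6 (Actg1 chr11:120348543-120348745, Acta1 chr8:123894776-123895025, both minus strand), with the CArG box in capitals.

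Actg1: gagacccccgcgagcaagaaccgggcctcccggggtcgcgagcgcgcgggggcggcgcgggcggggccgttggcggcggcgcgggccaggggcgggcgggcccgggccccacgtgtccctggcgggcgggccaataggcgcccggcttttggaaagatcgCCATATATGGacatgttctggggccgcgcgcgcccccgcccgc

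Acta1: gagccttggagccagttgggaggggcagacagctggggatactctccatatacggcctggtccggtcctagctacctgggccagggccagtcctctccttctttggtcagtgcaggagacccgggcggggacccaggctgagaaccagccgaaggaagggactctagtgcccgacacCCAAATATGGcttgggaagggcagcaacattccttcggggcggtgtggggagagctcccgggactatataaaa

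The box begins 90 bases before the RefSeq start of Actg1 and 73 bases before that of Acta1. The window searched ran from 250 bases before to 50 after the start. A CArG box was found there in 3 of the 4 actin genes with a RefSeq promoter, Actg1, Acta1 and Actc1. The pattern is its own reverse complement, so a search of the gene's strand covers both strands. Only exact matches to CCWWWWWWGG, where W is A or T, were counted. The window of Acta2 held no exact match, and a site that differs from this pattern would not have been found. Actb and Actg2 had no entry. Of all 16347 protein-coding genes with a promoter, 1.54% held the box. The level of these genes ran from 4151 TPM for Actg1 to 0 counts for Actc1, so genes with the box were found at both ends of the range.

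All 38 listed genes that handle actin monomers and filaments were expressed, and 30 of them reached 100 TPM or more, against 8.98% of protein-coding genes. The list's median was 219 ± 4.4 TPM, beside 1.93 ± 0.0293 TPM over all protein-coding genes. Cofilin 1 (Cfl1), which severs filaments, led with 2227, 2157 and 2215 TPM. Profilin 1 (Pfn1), which feeds monomers to growing ends, stood at 1020, 1047 and 994.6 TPM, and the bundling protein fascin (Fscn1) at 829, 834 and 805 TPM. The libraries of each of these genes lay close together. Subunits of the Arp2/3 complex, which starts branches, ranged from 177 ± 2.24 TPM for Arpc4 to 567 ± 2.12 TPM for Arpc2. Non-muscle myosin heavy chain Myh9 was at 327 ± 0.663 TPM and Myh10 at 112 ± 0.979 TPM. The low end of the list held the formin Diaph1 with 38.2 ± 0.997 TPM and the monomer-binding Cap2 with 6.82 ± 0.65 TPM.

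Monomeric actin holds the coactivators Mrtfa and Mrtfb in the cytoplasm, and when it is used up they bind Srf in the nucleus. All 8 genes listed for this pathway were expressed, against 51.8% of protein-coding genes. Srf was measured at 165, 173 and 166 TPM, Mrtfa at 59.4 ± 0.962 TPM and Mrtfb at 14.8 ± 0.503 TPM, a ratio of 4.01 ± 0.182 between the coactivators. Among genes known to respond to Srf or to tension, Ccn1 stood at 245 ± 4.8 TPM and Ankrd1 at 196 ± 2.52 TPM, whereas Ccn2 was at 5.16 ± 0.7 TPM with 23.2% of its exon bases shared with another gene. A CArG box was found in the promoter windows of Srf, Vcl and Fhl2, 3 of the 7 with an entry.

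The profile was led by translation. The 15 highest nuclear protein-coding genes were Eef1a1, Rplp1, Lgals1, Rplp0, Hsp90ab1, Rpl8, Rps15, S100a6, Acta2, Actg1, Ptma, Rpl41, Rps3a1, Eef2 and Rpl4. Eef1a1, the factor that brings charged tRNA to the ribosome, was at 13201, 13233 and 13400 TPM, and Rplp1, a ribosomal stalk protein, at 13268, 12782 and 12200 TPM. The libraries of these leaders overlapped, so their order is not resolved. Lgals1, which encodes galectin-1, a sugar-binding protein abundant in fibroblasts, followed at 9539 ± 195 TPM, and the list ended with Rpl4 at 3497 ± 27.9 TPM. The 82 genes matched as cytosolic ribosomal proteins or their close relatives held 10.2 ± 0.0644% of all TPM. How reads that match several genes were treated is unstated, so this share may miss reads.

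Most of the summed level came from few genes. The protein-coding genes fell into 115 with at least 1000 TPM, 1827 between 100 and 1000, 6572 between 10 and 100, 2885 between 1 and 10, 2082 between 0.1 and 1, 1882 above 0 and under 0.1, and 6261 with 0 counts in all libraries, which is 29% of them. The top class held 24.9 ± 0.133% of the TPM and 13.9 ± 0.108% of the counts, the class below it 43.2 ± 0.13% of the TPM. The median exon length was 1781 bases in the top class, 4927 in the class from 10 to 100 TPM and 2025 in genes with 0 counts, on a scale that itself divides by length. By counts the 10 highest genes held 3.82 ± 0.0408% of a library and the 100 highest 15.2 ± 0.0516%, and protein-coding genes held 99 ± 0.0111% in all.

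**Figure D2:**
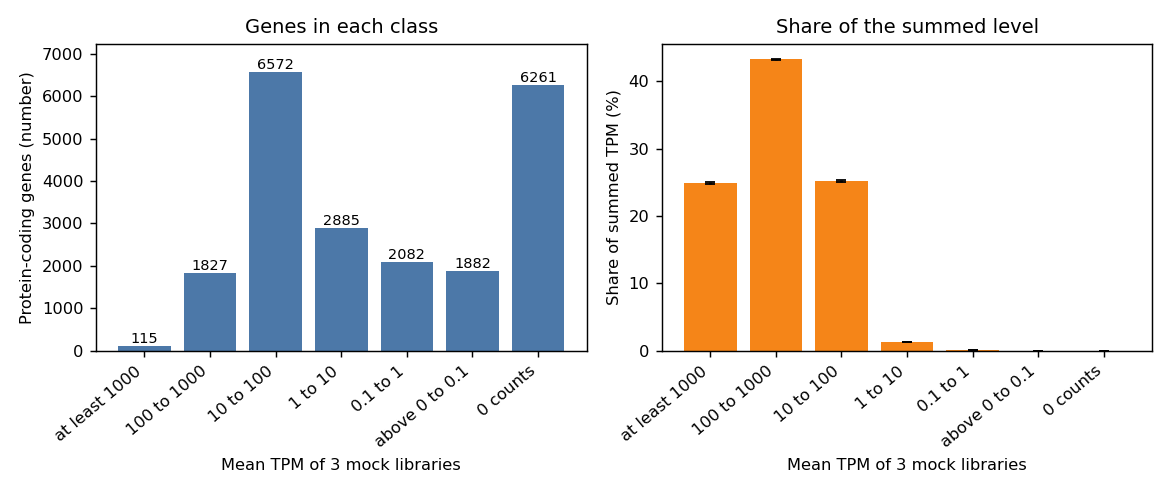
Number of protein-coding genes (left) and share of the summed TPM in percent (right, mean and SD of 3 mock libraries) by class of mean TPM. The class from 100 to 1000 TPM holds 1827 genes and the largest share, 43.2%, while 6261 genes have 0 counts.

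The cells carried the RNA of mesenchymal cells. Of 22 fibroblast and mesenchyme markers, 19 were expressed (86.4%, against 51.8% of protein-coding genes). Of the 22, 7 reached 100 TPM, and the list's median was 34 ± 0.298 TPM. Vimentin (Vim), the intermediate filament of mesenchymal cells, stood at 1541, 1532 and 1523 TPM. Col1a1, the α1 chain of type I collagen, stood at 1473, 1488 and 1434 TPM, and its chaperone Serpinh1 at 963, 975 and 942 TPM. Both the high level and the small spread were shared by Fn1 (fibronectin, 529 ± 8.69 TPM) and Ly6a (the surface antigen Sca-1, 317 ± 7.34 TPM). The receptors for platelet-derived growth factor were unequal, with Pdgfrb at 91.9 ± 1.63 TPM and Pdgfra at 12.5 ± 0.873 TPM. The transcription factors Prrx1 and Twist1 were at 35.7 ± 0.823 and 32.3 ± 1.32 TPM.

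Other defining fibroblast genes were low or missing. Decorin (Dcn), a small proteoglycan that coats collagen fibrils, was at 4.72, 4.3 and 3.91 TPM, and the surface antigen Thy1 at 1.76, 1.24 and 1.99 TPM. Lumican (Lum) had 1 count in all, the protease Fap had 2, and the factor Tcf21 had 0, which allows up to 0.0577 TPM. The fibroblast label of the cells therefore holds for most of the list but not for these 3 genes.

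Contractile genes were high alongside Acta2. Of 16 smooth muscle and myofibroblast markers, 14 were expressed (87.5%, against 51.8% of protein-coding genes). Of the 16, 9 reached 100 TPM, with a list median of 155 ± 2.4 TPM. The myosin light chain Myl9 was at 1234, 1258 and 1253 TPM, filamin A (Flna) at 723, 723 and 750 TPM, and tropomyosin Tpm2 at 714, 728 and 718 TPM. These genes varied by a few percent between libraries. Tagln was at 421 ± 4.28 TPM, although 67.9% of its exon bases are shared with another gene, and the calponin Cnn1 at 115 ± 3.89 TPM. The genes that mark mature smooth muscle were near 0, with Myh11, its myosin heavy chain, at 0.0974 ± 0.0196 TPM and its master coactivator Myocd at 0.064 ± 0.0201 TPM.

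Markers of 14 other cell types were mostly off. Of their 100 genes, 22 were expressed, 38 had 0 counts and 3 reached 100 TPM, and the median was 0.0343 TPM. Among all protein-coding genes 51.8% were expressed, 29% had 0 counts and 8.98% reached 100 TPM. None of 9 skeletal muscle, 6 lymphocyte, 8 endothelial, 4 liver and 3 germ cell markers was expressed. Ptprc, the antigen CD45 of all white blood cells, and the macrophage genes Adgre1, Itgam and Tyrobp had 0 counts, although Cd14 stood at 11.7 ± 1.32 TPM, Cd68 at 8.02 ± 0.747 TPM and Lyz2 at 2.06 ± 0.227 TPM, so 3 of 10 macrophage markers were expressed. Itgam shares 68.7% of its exon bases with another gene. The summed level of the macrophage list lay between 21.5 and 23 TPM over the libraries, and the part of such cells in any result was not tested.

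Epithelial and endothelial genes were low. Krt18, a keratin of simple epithelium, was the single epithelial marker of 10 expressed in all libraries, at 16.9, 19.4 and 17.2 TPM, whereas its usual partner Krt8 was at 0.527 ± 0.132 TPM. Krt14 missed the threshold by mock library 1, with 0.65, 1.28 and 1.45 TPM, and without that library 2 of 10 were expressed. Epcam had 1 count in all and Esrp1 had 0. Of the endothelial list Vwf was highest with 0.275 ± 0.0767 TPM, and Cdh5, Tie1, Emcn and Cldn5 had 0 counts.

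Some markers of other lineages were expressed in lists that also held members at 0 counts. Expressed were 2 of 6 heart, 4 of 8 bone, 5 of 11 neural, 2 of 5 mesothelial and 2 of 6 fat markers. Among all protein-coding genes the share was 51.8%. Nkx2-5, a transcription factor of early heart muscle (chromosome 17, 26838664 to 26845009), was at 81.9, 83.7 and 68.9 TPM, the third library the lowest. Of the heart sarcomere genes, Tnnt2 was at 1.48 TPM and Tnni3 at 0.297 TPM. Myh6, Myh7 and Actn2 had at most 2 counts in any library. Spp1, the matrix protein osteopontin, was at 544, 521 and 543 TPM, and Runx2, the factor of bone precursors, at 12.3 ± 0.599 TPM. The bone genes Alpl and Phex were at 9.07 and 2.20 TPM, whereas Bglap, Ibsp and Dmp1 had 0 counts. Nestin (Nes), an intermediate filament of neural and mesenchymal precursors, was at 168 ± 4.42 TPM and the tubulin Tubb3 at 55.1 ± 1.59 TPM. The neural genes Map2 and Syt1 were at 7.18 and 1.34 TPM, while Sox2, Sox10, Olig2, Rbfox3 and Snap25 had 0 counts. Mesothelin (Msln) was at 116 ± 4.08 TPM and Krt19 at 29.3 ± 1.55 TPM, with the mesothelial factor Wt1 at 0.319 ± 0.0643 TPM. Pparg, the regulator of fat cells, was at 35.9 ± 1.33 TPM, with Adipoq and Lep at 0 counts. The other mesothelial genes Upk3b and Lrrn4 had 2 counts and 0 counts in all.

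**Figure D3:**
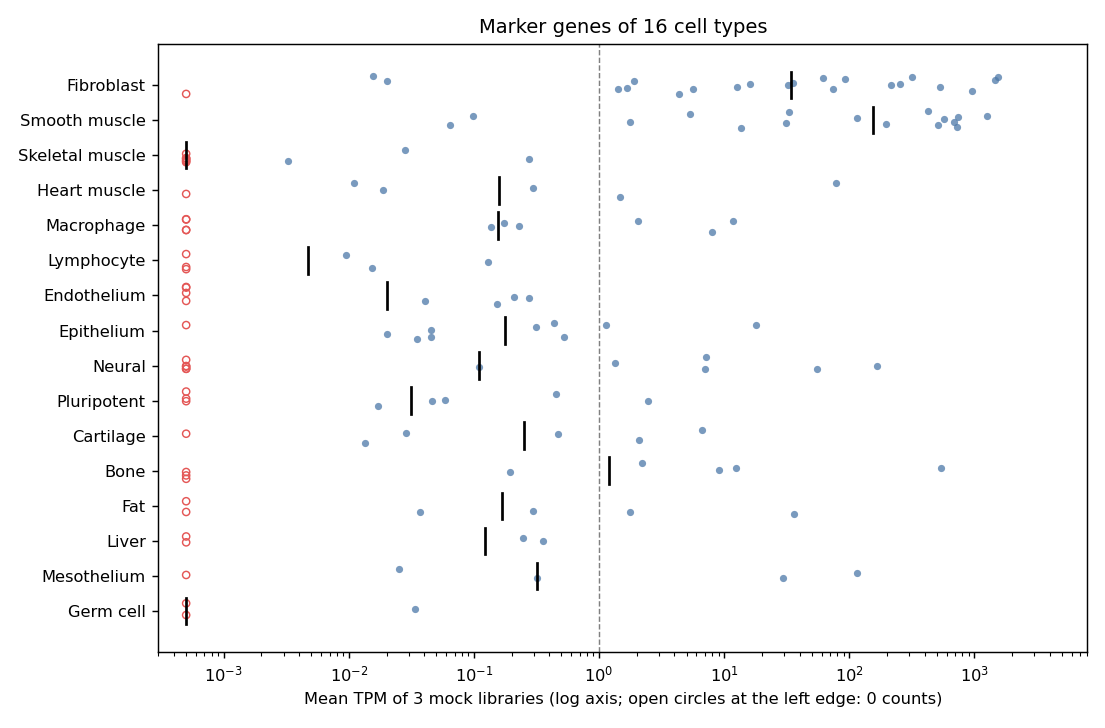
Mean TPM over the 3 mock libraries (log axis) of each marker gene, in 16 lists of cell type markers; each point is 1 gene, the vertical bar is the median of the list, the dashed line marks 1 TPM and open circles at the left edge have 0 counts. The fibroblast and smooth muscle lists have 19 of 22 and 14 of 16 genes expressed, and the other lists 22 of 100.

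The matrix was described by 5 lists with 129 genes, of which 88 were expressed (68.2%, against 51.8% of protein-coding genes). Of the 129, 31 reached 100 TPM and 11 had 0 counts. Among the 44 collagen genes 22 were expressed (50%), near the share of all protein-coding genes. The median of the collagen list was 1.19 TPM, beside 1.93 TPM over all protein-coding genes. After Col1a1 came Col6a1, the α1 chain of the microfibril collagen VI, at 617, 618 and 626 TPM, then the basement membrane chains Col4a1 at 358 ± 4.54 TPM and Col4a2 at 232 ± 1.42 TPM. Col6a2 followed with 168 ± 2.49 TPM. The cartilage collagen Col2a1 was at 2.08 ± 0.227 TPM, and 5 collagen genes had 0 counts.

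Chains that are built into 1 protein were not always at equal levels. Type I collagen holds 2 α1 chains to each α2 chain, yet Col1a2 (chromosome 6, 4504814 to 4541544) was at 6.01, 5.37 and 5.54 TPM, and the ratio of Col1a1 to Col1a2 was 260 ± 16 in TPM and 137 ± 8.44 in counts. The 3 libraries gave 245, 277 and 259, so the gap was present in each. On the log2 scale it was 8.02 ± 0.0883 with exon length and 6.95 ± 0.0883 with the longest transcript as length, since the merged exons of Col1a2 span 12426 bases. By contrast Col4a1 to Col4a2 was 1.55 ± 0.0199, Col5a1 to Col5a2 was 1.08 ± 0.0138 and Col6a1 to Col6a2 was 3.69 ± 0.0355 in TPM and 1.94 ± 0.0187 in counts. For Col5a1 and Col5a2 the ratio of counts was 0.957 ± 0.0122, so their order turned with the use of length.

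Genes that modify and crosslink collagen were all expressed, 17 of 17, with a median of 97.8 ± 4.14 TPM. P4hb, the β subunit of prolyl hydroxylase and a disulfide isomerase, was at 1558 ± 21.2 TPM and Pcolce, which helps to cleave procollagen, at 610 ± 6.11 TPM. The lysyl oxidases, which crosslink fibres, ranged from 20.5 ± 1.33 TPM for Loxl3 to 166 ± 0.658 TPM for Loxl4. Of 30 matrix glycoproteins 22 were expressed (73.3%, against 51.8% of protein-coding genes). They were led by Sparc at 977, 973 and 992 TPM and Igfbp7 at 632, 602 and 599 TPM. Elastin (Eln), vitronectin (Vtn) and Mfap4 had 0 counts, which for Eln allows up to 0.0167 TPM. Lysyl oxidases were thus present in cells with no detected elastin RNA. Of 21 proteoglycans 15 were expressed (71.4%, against the same 51.8%), with the syndecan Sdc2 highest at 250 ± 4.78 TPM and glypican Gpc3 at 0 counts.

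Cells bind matrix through integrins, pairs of an α and a β chain. Itgb1, the β chain shared by most of them, was at 645, 648 and 674 TPM, and Itga5, its partner for fibronectin, at 181, 176 and 177 TPM. Their ratio was 3.69 ± 0.121, and 11 of 20 integrin genes were expressed (55%, against 51.8% of protein-coding genes). Itgb5 was at 139 ± 1.6 TPM and Itga3 at 90.6 ± 0.646 TPM, while the leukocyte chain Itga4 had 1 count in all. Among proteases and their inhibitors, 12 of 17 were expressed (70.6%, against the same 51.8%). The inhibitor Timp2 led at 1056, 1044 and 1073 TPM, followed by Timp1 at 437 ± 7.74 TPM and the gelatinase Mmp2 at 194 ± 3.48 TPM. Mmp10 and Mmp13 had 0 counts.

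Cell cycle genes were at high levels. All 23 proliferation genes were expressed and 18 reached 100 TPM, against 51.8% and 8.98% of protein-coding genes. Their median was 215 ± 3.86 TPM. Pcna, the sliding clamp of DNA polymerase, was at 482, 481 and 506 TPM, Mcm5, part of the replicative helicase, at 433 ± 7.1 TPM, cyclin A2 (Ccna2) at 375 ± 14.9 TPM and topoisomerase Top2a at 374 ± 12.1 TPM. Genes of S phase and of mitosis were both present, with Plk1 at 292 ± 9.59 TPM and Mki67 at 126 ± 2.46 TPM.

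Inhibitors of the cycle were expressed beside them, 11 of 12 (91.7%, against 51.8% of protein-coding genes). Cdkn2a, the locus of p16 and of p19Arf, was at 1064, 1043 and 992 TPM, and its neighbour Cdkn2b at 187, 183 and 174 TPM, a ratio of 5.69 ± 0.015. The files hold 1 value for Cdkn2a and do not separate its products. Trp53, which encodes p53, was at 153 ± 2.52 TPM, its target Cdkn1a (p21) at 76.8 ± 0.88 TPM and Mdm2, which degrades p53, at 62.3 ± 2.46 TPM. Rb1, the retinoblastoma protein that p16 helps to keep active, was lower at 7.36 ± 0.234 TPM, and the imprinted inhibitor Cdkn1c had 0 counts, with 30.7% of its exon bases shared with another gene.

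The sensing machinery was present before any nucleic acid was given. Over the lists of RNA sensors, DNA sensors, kinases with adaptors, and receptors with STATs, 47 of 55 genes were expressed. This is 85.5%, against 51.8% of protein-coding genes. Of the 55, 1 had 0 counts, and the median was 17.6 TPM. All 10 RNA sensing genes were expressed. Ddx58 (RIG-I), which binds RNA ends with a triphosphate, was at 21.1, 22.1 and 21.6 TPM, whereas Ifih1 (MDA5), which binds long double-stranded RNA, was at 3.36, 2.88 and 3.59 TPM. Their ratio was 6.65 ± 0.887 and exceeded 1 in 3 of 3 libraries. Their shared adaptor Mavs was at 56.2 ± 0.807 TPM, the kinase Eif2ak2 (PKR) at 71.8 ± 3.4 TPM, Tlr3, the endosomal sensor, at 3.98 ± 0.184 TPM and the third member of the RIG-I family, Dhx58, at 1.27 ± 0.104 TPM.

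DNA sensing was uneven along its main path. Cgas, the enzyme that makes cyclic GMP-AMP on DNA (chromosome 9, 78430526 to 78443237), was at 39.4, 42.1 and 42.8 TPM. Tmem173 (STING), the receptor of that messenger, was at 1.63, 1.84 and 1.55 TPM from 39, 38 and 25 counts. The ratio of Cgas to Tmem173 was 24.9 ± 2.37 in TPM and 37.4 ± 3.57 in counts. Of the 15 DNA sensing genes 10 were expressed (66.7%, against 51.8% of protein-coding genes). Lrrfip1 was highest at 65.7 ± 1.25 TPM and Ifi204 was at 14.9 ± 0.483 TPM. Aim2, the inflammasome sensor, stood at 0.302 ± 0.111 TPM and Zbp1 at 0.0447 ± 0.0487 TPM. Trex1, the nuclease that degrades cytosolic DNA, had 0 counts, but 100% of its exon bases are shared with another gene. Of the 201 protein-coding genes that share at least 90% of their exon bases, 79.1% had 0 counts, against 28.5% of the other 21423, so a 0 for such a gene gives no level.

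Downstream factors were expressed at moderate levels. Tbk1, the kinase that activates Irf3, was at 71.1, 69 and 71.3 TPM and its relative Ikbke at 4.14 ± 0.339 TPM. Irf1 was at 59 ± 2.39 TPM, Irf3 at 20 ± 0.332 TPM, and Irf7, which is itself induced by interferon, at 2.52 ± 0.531 TPM. Among 12 Toll-like receptors 5 were expressed (41.7%, against 51.8% of protein-coding genes). Tlr2, which detects bacterial lipopeptides, was the highest at 39, 35.4 and 38.1 TPM, Tlr4, the receptor for lipopolysaccharide, was at 2.21 ± 0.158 TPM, and 4 had 0 counts. The receptor chains Ifnar1 and Ifnar2 were at 44.4 ± 0.538 and 31.3 ± 1.89 TPM, and Jak1 at 126 ± 6.27 TPM. Stat2 was at 17.4 ± 0.654 TPM. The interferon-λ receptor chain Ifnlr1 stood at 3.27 ± 0.319 TPM.

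Interferon genes had almost no counts. None of the 20 type I and type III interferon genes was expressed and 16 had 0 counts in every library. All 20 together had 7, 3 and 1 counts, a total of 11 among 74221827. Ifne had 4, 0 and 0 counts, Ifna14 had 0, 2 and 0, Ifnz had 2, 1 and 1, and Ifnb1, the gene of interferon β, had 1, 0 and 0. Each of these is at or near the limit of what the depth can show.

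Interferon-stimulated genes nonetheless spanned the whole range. The median of the 60 listed was 3.4 ± 0.162 TPM, beside 1.93 TPM over all protein-coding genes. Of the 60 listed, 39 were expressed (65%, against 51.8% of protein-coding genes). One lay above 1000 TPM, 4 between 100 and 1000, 16 between 10 and 100, 19 between 1 and 10, 19 above 0 and under 1, and 1 had 0 counts. B2m, the light chain of MHC class I, was at 1818, 1764 and 1775 TPM. Ifitm3, which blocks virus entry, was at 413, 422 and 441 TPM, Ifitm2 at 607 ± 14.1 TPM with 40.9% of its exon bases shared, and tetherin (Bst2) at 191 ± 3.99 TPM. Ifit2 was at 41.4 ± 1.75 TPM, whereas its neighbours Ifit1 and Ifit3 were at 1.56 ± 0.08 and 1.29 ± 0.288 TPM. The ubiquitin-like Isg15 was at 7.26, 10 and 7.44 TPM.

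The classical induced effectors were at the bottom. Rsad2 (viperin) had 7, 4 and 6 counts and 0.181 ± 0.0569 TPM, and the GTPase Mx1 15, 10 and 11 counts and 0.433 ± 0.0745 TPM. The oligoadenylate synthetases, which activate RNase L, ranged from 0.752 ± 0.221 TPM for Oas1b to 0 counts for Oas2, which allows up to 0.0304 TPM. The list thus held genes at more than 1000 TPM and genes with no count in the same cells.

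The promoters of Isg15, Ifit1 and B2m are shown because all 3 hold the pattern GAAANNGAAA, the core of the element that interferon-activated factors bind, while their resting levels differed. Each line gives bases before the start on the gene's own strand, ending at the RefSeq start of Isg15, 18 bases before that of Ifit1 and 1 base before that of B2m, from RefSeq on GRCm38.p6 (Isg15 chr4:156200819-156201068, minus strand; Ifit1 chr19:34640639-34640870, plus strand; B2m chr2:122147437-122147685, plus strand). Capitals mark the pattern on either strand, and the matches in Isg15 overlap.

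Isg15: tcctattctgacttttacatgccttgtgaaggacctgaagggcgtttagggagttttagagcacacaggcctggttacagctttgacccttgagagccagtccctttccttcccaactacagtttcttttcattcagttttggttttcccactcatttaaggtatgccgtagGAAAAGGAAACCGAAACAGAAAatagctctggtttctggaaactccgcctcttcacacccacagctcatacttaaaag

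Ifit1: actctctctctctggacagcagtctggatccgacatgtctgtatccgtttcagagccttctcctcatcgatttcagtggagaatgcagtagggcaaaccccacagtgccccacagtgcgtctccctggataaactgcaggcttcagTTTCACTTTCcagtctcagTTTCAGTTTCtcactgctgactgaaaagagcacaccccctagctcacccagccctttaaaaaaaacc

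B2m: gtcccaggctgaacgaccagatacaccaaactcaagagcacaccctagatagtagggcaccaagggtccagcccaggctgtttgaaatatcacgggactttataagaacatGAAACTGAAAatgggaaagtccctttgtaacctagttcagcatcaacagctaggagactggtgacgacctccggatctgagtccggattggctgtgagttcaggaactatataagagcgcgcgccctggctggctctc

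In Isg15 the matches begin 78, 72 and 66 bases before the start, in Ifit1 104 and 85 bases before the RefSeq start, and in B2m 139 bases before it. The pattern, searched on both strands from 250 bases before to 50 after the start, was found in 24 of the 51 interferon-stimulated genes with a promoter entry (47.1%) and in 3.44% of all 16347. It was in 11 of 19 interferon genes, none of which was expressed. Among interferon-stimulated genes it was in 15 of the 36 expressed and 9 of the 15 not expressed, and the median level was 2.52 TPM with it and 7.81 TPM without.

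Some chemokines were at high levels at rest, but the list as a whole stood near the background. Of 37 cytokine, chemokine and growth factor genes, 20 were expressed (54.1%, against 51.8% of protein-coding genes) and 6 reached 100 TPM. Ccl2, which attracts monocytes, was at 1093, 1087 and 1086 TPM and its neighbour Ccl7 at 878, 828 and 865 TPM, a ratio of 1.27 ± 0.0369. Cxcl12, which retains blood stem cells, was at 318 ± 5.16 TPM, Csf1, the growth factor of macrophages, at 306 ± 5.17 TPM, and Cxcl1, which attracts neutrophils, at 292 ± 3.62 TPM. Interferon-inducible Cxcl10 was at 13.7 ± 0.783 TPM and Ccl5 at 6.98 ± 0.808 TPM. Il6 had 15, 8 and 13 counts and 0.685 ± 0.239 TPM, Tnf had 1 count in all, and Il1a and Il1b had 0.

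**Figure D4:**
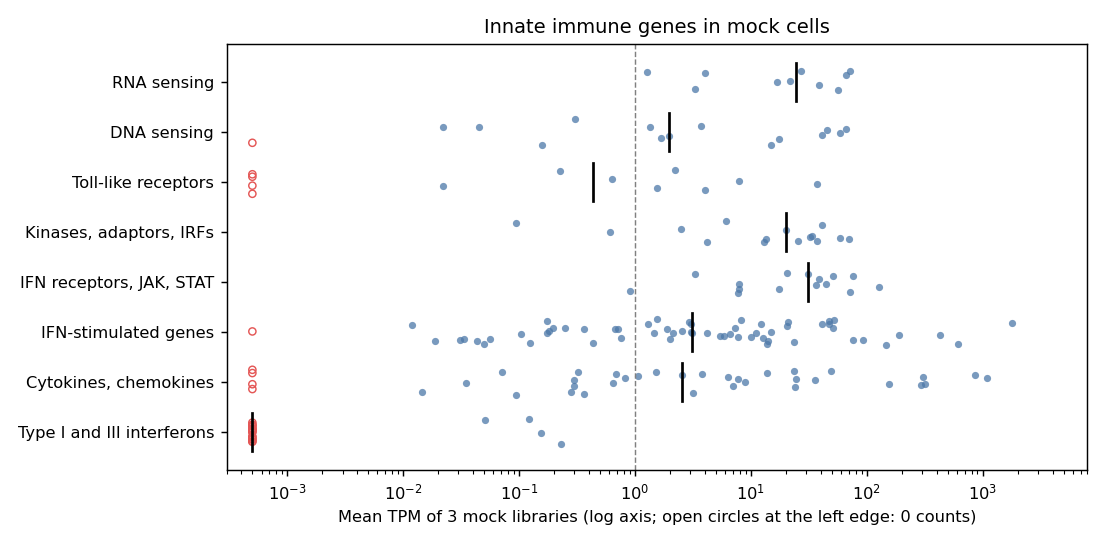
Mean TPM over the 3 mock libraries (log axis) of each gene in 8 innate immune lists; each point is 1 gene, the vertical bar is the median of the list, the dashed line marks 1 TPM and open circles at the left edge have 0 counts. All 10 RNA sensing genes lie above 1 TPM, interferon-stimulated genes run from 0 counts to 1785 TPM, and 16 of 20 interferon genes have 0 counts.

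Hox genes record position along the body, with higher paralog numbers further to the tail. Of 39, 29 were expressed (74.4%, against 51.8% of protein-coding genes) and 5 had 0 counts (12.8%, against 29%). Hoxb9 was the highest at 111, 112 and 110 TPM, followed by Hoxb7 at 42.7 ± 1.44 TPM, Hoxb6 at 29.1 ± 4.43 TPM and Hoxa10 at 27.1 ± 0.274 TPM. The clusters differed in sum, with 243 ± 8.43 TPM for Hoxb, 102 ± 1.48 for Hoxa, 44.1 ± 0.699 for Hoxc and 10.4 ± 1.86 for Hoxd. Expressed genes numbered 9 of 11 in Hoxa, 9 of 10 in Hoxb, 9 of 9 in Hoxc and 2 of 9 in Hoxd. Hoxd10 to Hoxd13 had 0 counts, while Hoxb13 was at 24.7 ± 1.24 TPM and Hoxc13 at 8.32 ± 0.402 TPM. The highest paralog group was therefore counted in some clusters and not in others.

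**Figure D5:**
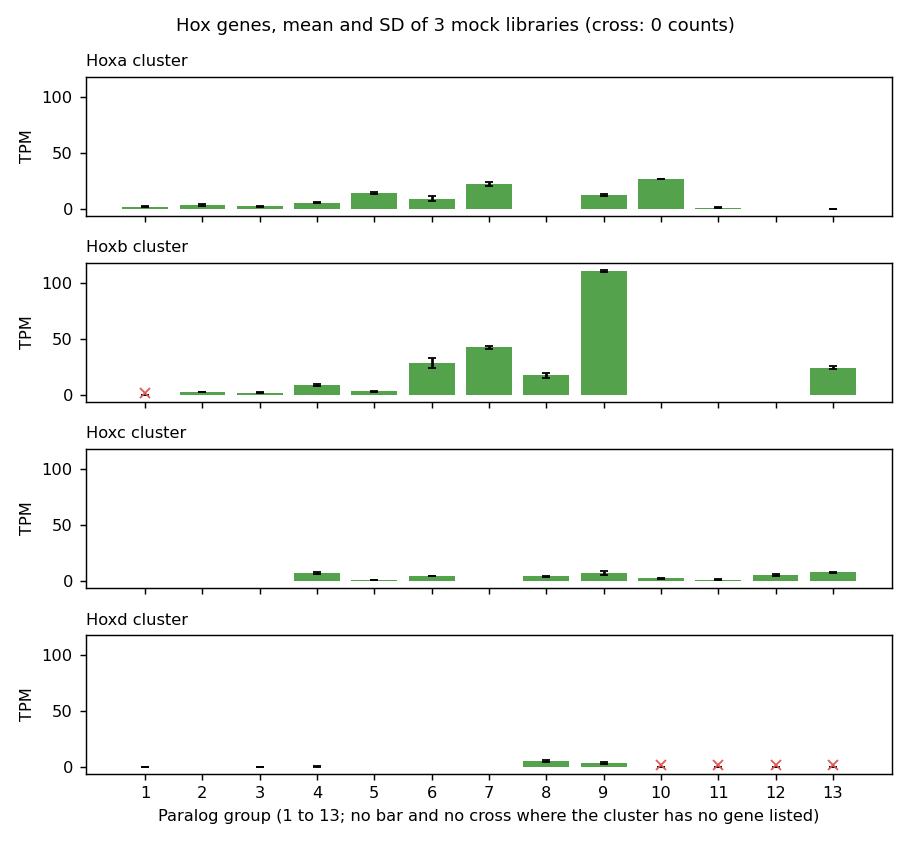
TPM of the Hox genes by paralog group in the 4 clusters, mean and SD of 3 mock libraries, with crosses for genes with 0 counts. Hoxb9 is the highest bar at 111 TPM, and the Hoxd cluster has 2 genes above 1 TPM.

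Other position and lineage factors were mixed, with 25 of 50 expressed (50%, against 51.8% of protein-coding genes) and 10 at 0 counts. Among the highest were Tbx15, a factor of skeleton and skin mesenchyme, at 34.5, 35.9 and 34 TPM, Emx2 at 28.7 ± 2.23 TPM, Foxd1 at 28.2 ± 0.802 TPM and En1 at 25.3 ± 1.87 TPM. Gata4, a heart and gut factor, was at 15.6 ± 0.935 TPM. The limb and heart factors Tbx5, Hand1, Hand2 and Isl1 had 0 counts.

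Families made for other organs had few or no counts. Olfactory receptors had 0 counts in 1010 of 1030 genes, vomeronasal receptors in 280 of 293, taste receptors in 35 of 38, keratin-associated proteins of hair in 55 of 56, defensins in 62 of 64, major urinary proteins in 21 of 21 and secretoglobins in 32 of 34. None of these 1536 genes was expressed, and their 1495 genes with 0 counts made up 23.9% of all protein-coding genes at 0. Variable segments of immunoglobulins had 0 counts in 218 of 218 and those of T cell receptors in 134 of 136. For the 7 families the share at 0 counts over all protein-coding genes was 29%. The variable segments are not typed as protein coding, and of genes not protein coding 77.6% had 0 counts. The treatment of reads that match several genes is unstated, so a 0 in a family of close copies may miss reads. By contrast 79 of 82 ribosomal protein genes, 38 of 40 proteasome subunits and 36 of 37 nuclear genes named as NADH dehydrogenase subunits or their relatives were expressed.

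Promoter letters changed along the abundance classes. The ratio of observed to expected CpG, a measure of how far a promoter keeps its CG pairs, had a median of 0.857 in genes of at least 1000 TPM, 0.827 from 100 to 1000, 0.803 from 10 to 100, 0.682 from 1 to 10, 0.393 from 0.1 to 1 and 0.189 in genes with 0 counts. The pattern TATAAA, beginning 40 to 20 bases before the start on the gene's strand, was in 4.94% of promoters in the top class (4 of 81), 0.625% from 10 to 100 TPM (33 of 5279) and 6.15% of those with 0 counts (277 of 4507), against 2.78% of all. The TATA share was thus lower in the middle classes than in genes with 0 counts, and the top class rests on 4 genes. Promoters in RefSeq covered 70.4% of the top class and 72% of genes with 0 counts.

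The 3 libraries differed little. The common biological coefficient of variation, the spread beyond counting error as edgeR estimates it, was 2.17% over 12811 genes. The median coefficient of variation of TPM was 1.36% in genes of at least 1000 TPM, beside a median expected counting error of 0.679%. It was 3.42% from 10 to 100 TPM, beside 2.98%, and 8.73% from 1 to 10 TPM, beside 8.52%. From 0.1 to 1 TPM, among genes counted in every library, it was 32.1%, under the expected 37%. A coefficient from 3 libraries tends to fall under its true value, so these pairs do not measure the spread beyond counting. Among genes of at least 10 TPM the most variable were Castor1 (9.59, 12.1 and 15.4 TPM), Dnajc17, Zkscan6, Ndufaf3 and Vps37d, with coefficients from 20.1% to 23.5%. No pair of libraries agreed within sampling noise, with a chi-square per degree of freedom between 1.68 and 2.15, so each was counted once.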

How the data were processed

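The deposited values are raw counts of reads per Ensembl gene, 1 file per library with 46603 identifiers, and the authors used TopHat2 2.1.0, HTSeq and DESeq2 with GRCm38.p4, per the submitters' processing notes. The libraries were made from total RNA with a kit that does not mark strand, per the labels' protocols. Which annotation release was counted, and what was done with multimapping reads, is unstated in the labels and notes. Where genes share exons, counts can be lost or split.

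Counts were used as deposited. Symbols, positions and merged exon lengths came from GENCODE M21 (GRCm38), which matched 46091 identifiers, and the other 512 held 0.0546% of the counts. TPM were computed from counts and exon length in Python 3.11.15 with pandas 2.3.3. A 57-base gene, Gm23935, had the highest value per length, 25322 ± 2466 TPM, and weighs on the scale of all other genes. The TPM step and the dispersion step were tested on simulated data. The spread between libraries was estimated with edgeR 4.0.16 in R 4.3.3, with TMM scaling and genes of at least 10 counts in every library. DESeq2 1.42.0 gave alternative size factors. No groups were compared, so no gene was tested.

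Members and the 35 lists and 23 families were chosen with earlier results of these data known, and no list is independent evidence of its own level. Genes were named by rule: the 15 highest nuclear protein-coding genes, the 6 actins, up to 5 of the highest and 3 of the lowest members of each list, members needed to complete a pathway, all counted interferon genes, and the 5 most variable genes of at least 10 TPM. Predicted genes without names are given as counts only. A few genes that the rule names are not reported here. Limits for a count of 0 use 3 counts over the 3 libraries and hold for counting error alone, because reads were not tagged by molecule. At the depth of a single library 3 counts are 0.103 to 0.151 CPM. Alternatives were other lengths, scales, thresholds and leaving out each library.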

Additional observations from a re-analysis of the deposited data

How the results depend on the processing

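No paired analysis was possible because 1 group was described and no groups were compared. The log2 ratio of Acta2 to Actg1, 0.15 ± 0.0155 by exon length, was -0.18 with the longest transcript as length, -0.12 without length (CPM) and 0.18 with exon length less 200 bases; gene length is the single choice that differs between these values. Without length, 70 protein-coding genes in place of 115 lay above 1000, and 1136 genes in place of 578 held the upper part of the summed level. Of the epithelial markers 2 of 10 were expressed at a mean of 1 TPM and at 0.5 TPM in every library, 3 at 10 counts in every library, and 1 to 2 when 1 library was left out. Of the endothelial markers 1 of 8 passed at 10 counts in every library and at 1 CPM. The common coefficient of variation lay between 1.59% and 2.49% when 1 library was left out, lowest without mock library 3. TATAAA anywhere in the 100 bases before the start was found in 1.04% of promoters from 10 to 100 TPM and in 10.4% of those with 0 counts. In the other 125 recomputed summary values the change stayed within 1.5 times of a count, 1 SD, or another set limit. These other limits were a closer ratio for the coefficient of variation and a binomial interval for the TATA share. In the top class TATAAA in the wider window was found in 7.41% of promoters, in place of 4.94%, within the broad interval of 81 promoters. Levels and ratios of single genes moved by more than 1 SD in 27 recomputations and by less in 53. Genes near 1 TPM rest on few counts, and their side of the threshold is limited by depth.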

Other observations

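Genes of the sex chromosomes were read as a group. Of 183 protein-coding genes on the Y chromosome 180 had 0 counts, including Ddx3y and Eif2s3y, and 1 was expressed, a predicted gene at 44.3 TPM. The Y protein-coding genes together had 454, 400 and 266 counts. Xist, the RNA that coats the inactive X chromosome, had 1, 1 and 4 counts, or 0.0173 ± 0.018 TPM, while the X-linked genes Ddx3x and Kdm5c were at 417 ± 7.89 and 70.9 ± 0.636 TPM. On the X chromosome 39.4% of 942 protein-coding genes were expressed, beside 53% on the autosomes. Apart from the predicted gene, the libraries thus held few counts of Y protein-coding genes or of Xist, and the cause was not tested.

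Imprinted genes, which are read from 1 parental copy, were uneven, with 14 of 23 expressed and 4 at 0 counts. The expressed share was 60.9%, against 51.8% of protein-coding genes. Peg10 was at 180, 187 and 189 TPM, Grb10 at 119 ± 0.937 TPM and Dlk1 at 31.3 ± 1.97 TPM. H19, which is abundant in many embryonic tissues, had 0 counts in all 3 libraries, and its neighbour Igf2 was at 0.299 ± 0.0781 TPM, with 64.5% of its exon bases shared with another gene. Peg3 had 0, 5 and 3 counts.

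Prl2c2, the growth factor proliferin of the prolactin family, was at 126, 129 and 132 TPM, while 12 of the 25 genes of the family had 0 counts. Its relatives Prl2c3 and Prl2c5 are close copies in sequence, so its reads may be split among them. Klra4, of the Ly49 receptors of natural killer cells, was at 5.65 ± 0.52 TPM, with 8 of 11 genes of that family at 0 counts. Nanog, a factor of pluripotent cells, was at 2.48 ± 0.25 TPM, while Pou5f1 had 1 count in all and Zfp42, Dppa3 and Lin28a had 0.

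Mitochondrially encoded genes held 0.32 ± 0.0029% of the counts, with mt-Nd1 highest at 3060 ± 95.3 TPM. Of these 37 genes 14 were expressed and 20 had 0 counts. Among their 22 tRNA genes 19 had 0 counts, and among their 13 protein-coding genes 1 had 0 counts and 10 were expressed. The treatment of reads that match several genes is unstated. The share is one of assigned counts, and the part of lost reads in it was not tested.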
